A study of Zea mays with 24 samples.

Results

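The events described here are 231 alternative splicing (AS) events in 187 genes that gave a value at stage V5 almost only at the intermediate maximum daily temperatures (MDTs). They were taken from all 28092 AS events listed at V5. An event was kept if 5 or 6 of the 6 libraries at 33°C and 35°C MDT had a value for it, and at most 1 of the 6 at 31°C and 37°C MDT. They are called the 33/35 events below. This rule took 0.822% of the V5 events, and the reverse rule, with the 2 pairs of MDTs exchanged, took 43 events or 0.153%. The events were thus chosen by a measured quantity, the presence of a value in each V5 library, and all differences between these pairs of MDTs at V5 are given as a description and without a test.

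RNA was sequenced from the first fully expanded leaf of the maize (Zea mays) inbred line W22, and by the labels the groups differed in MDT and stage only. The 24 libraries formed 8 groups of 3, from 4 MDTs (31°C, 33°C, 35°C and 37°C) at each of 2 stages, V4 at 20 days after germination (DAG) and V5 at 27 DAG. Every plant was grown under a daily cycle that reached the MDT by day and cooled at night, and 31°C was the normal temperature of the study. The study grew each MDT in duplicate chambers and the labels do not name the chamber of a library, so an effect of the chamber cannot be told apart from that of the MDT. The study calls the libraries of a group biological replicates, and the labels do not say which plants or chambers they came from, so a p value covers only the spread between these libraries. The leaf could not be checked by its marker genes, because no annotated gene with a V5 event was described as a leaf carbon fixation enzyme or a chlorophyll binding protein.

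Splicing removes introns from the transcript and joins the exons, and AS joins them in more than 1 way. An exon can be left out (exon skipping, ES), an intron can stay in the RNA (intron retention, IR), an exon can begin or end at another splice site (alternative 3′ or 5′ splice site, A3SS or A5SS), or 2 exons can be used in turn (mutually exclusive exons, MXE). In plants, AS is widespread and responds to temperature, and isoforms with an early stop codon can be removed by nonsense-mediated decay.

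For each event and most libraries, the tables gave inclusion reads, skipping reads and ψ, which is the share of the inclusion isoform after correction for length. In ES the inclusion isoform holds the exon, in IR it holds the intron, and in A3SS and A5SS it holds the longer exon. A value was listed only where both isoforms had at least 1 read. A missing value does not say which isoform was at 0, or that either was, and it does not say that the gene was silent. In the MXE event of Zm00001d001808, a V5 library at 31°C had 78 inclusion and 51 skipping reads, and the others at 31°C had no value.

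The V5 libraries at 33°C and 35°C held 3103796 to 3378578 reads on all their events and those at 31°C and 37°C 2662780 to 3097289, without overlap. The libraries at 33°C and 35°C gave a value for 12686 to 13239 events each and those at 31°C and 37°C for 10861 to 11284, so more events were seen at the intermediate MDTs. On the 4506 events with a value in every V5 library, the reads of the pairs of MDTs overlapped, from 1148463 to 1232158 at 33°C and 35°C and from 1178138 to 1267154 at 31°C and 37°C. On the same events the rarer isoform took 10.1% to 11.0% of the reads at 33°C and 35°C and 9.29% to 9.98% at 31°C and 37°C. The part of these general differences in the 33/35 events was not tested.

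At 33°C the 3 libraries had a value for 206, 203 and 192 of the 231 events (83.1% to 89.2%), and at 35°C for 204, 207 and 204. At 31°C they had a value for 16, 26 and 23 of the events, and at 37°C for 37, 23 and 27. Of the 231 events, 61 had a value in all 6 libraries at 33°C and 35°C and 170 in 5 of them. At 31°C and 37°C, 79 events had no value at all and 152 had a value in a single library, which was a 31°C library for 65 events and a 37°C library for 87. Only 21 events had a value in all 6 libraries of the intermediate MDTs and in none of the others.

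**Figure D1:**
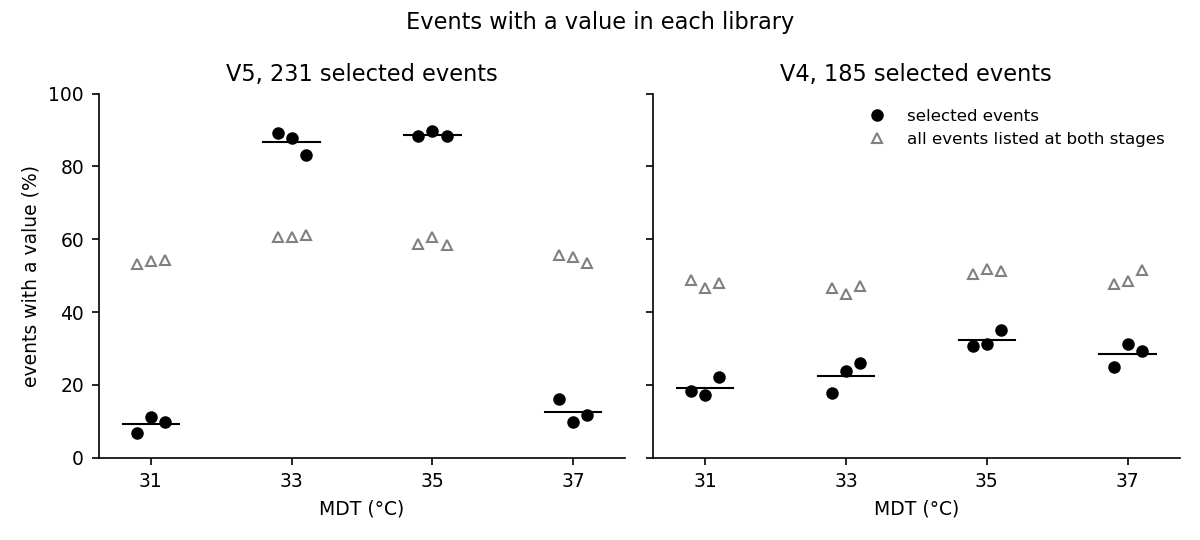
Share of events with a value in each library against MDT (°C), at V5 (left, 231 events) and V4 (right, the 185 of them listed there). Filled circles are the libraries' shares of the 33/35 events with bars at the group means, and open triangles are the shares of all 18730 events listed at both stages. The step at V5 was set by the rule, and at V4 the circles lie between 17.3% and 35.1% at every MDT.

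Events just inside and just outside the limits of the rule had similar reads. The 112 events that met it by the least margin, with 5 libraries at 33°C and 35°C and 1 at 31°C and 37°C, had a median of 2 reads of the rarer isoform. The 445 events with 4 libraries and 0 or 1 library missed it with a median of 1.5 reads of the rarer isoform, and the 343 events with 5 or 6 libraries and 2 libraries missed it with a median of 2.

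The 33/35 events were mostly exon skipping. They comprised 154 ES (66.7%), 30 A3SS (13.0%), 22 A5SS (9.52%), 17 IR (7.36%) and 8 MXE events (3.46%). Among all V5 events, ES made up 52.3%, A3SS 19.0%, IR 12.1%, A5SS 11.6% and MXE 5.03%. IR was thus a smaller and ES a larger share of the 33/35 events than of all events.

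In most of these events the second isoform was rare. Over the libraries at 33°C and 35°C, the median of the rarer isoform was at most 2 reads in 147 of the 231 events (63.6%), at least 5 reads in 27 and at least 10 reads in 9. By reads, without correction for length, the skipping isoform was the rarer in 184 events, the inclusion isoform in 43, and both were equal in 4. Across the 231 events the median was 60 inclusion reads and 2 skipping reads per event.

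The share of events that met the rule fell with the reads of the rarer isoform. Of the 8137 events that 5 or 6 of the libraries at 33°C and 35°C gave a value for, 2.84% were 33/35 events. This share was 17.6% (65 of 369) where the rarer isoform had a median of up to 1 read. It was 8.41% (82 of 975) above 1 and up to 2 reads, and 0.313% (9 of 2875) above 10 reads.

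**Figure D2:**
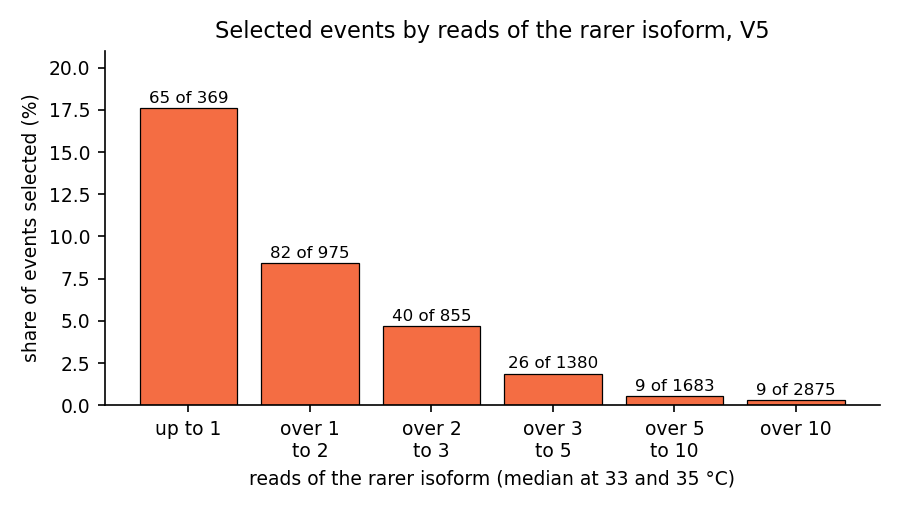
Share of V5 events selected as 33/35 events (%) among all events seen in 5 or 6 of the libraries at 33°C and 35°C, by the median reads of the rarer isoform in those libraries. Numbers above the bars are the selected events and all events of the bin. The share was highest, 17.6%, where the rarer isoform had up to 1 read.

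Where a 33/35 event did have a value at 31°C or 37°C, ψ was mostly close to that at 33°C and 35°C. In the 152 events with such a library, ψ there differed from the mean at 33°C and 35°C by a median of 0.94 percentage points (quartiles -0.42 and 2.91), and 106 were within 5 points. The rarer isoform had 1 read in that library in 70 events and 2 reads in 36. The commoner isoform, scaled by the reads on events present in every library, was at a median of 0.852 times its level at 33°C and 35°C (quartiles 0.683 and 1.09). These libraries were those that happened to have a value, which needs reads of both isoforms, so they are a chosen set.

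Values of single events below are those of V5 libraries unless V4 is named. The ES events with the most skipping reads left the exon out in a minority of the reads. The largest was in Zm00001d016720, on chromosome 5, where the exon at 174141955 to 174142026 (72 bases, B73 RefGen_V4) was skipped. Its skipping reads were 22 and 21 in 2 libraries at 33°C, with no value in the other, and 18, 29 and 14 at 35°C, beside 264 to 338 inclusion reads. ψ was 90.9% ± 0.424 (SD, n = 2) at 33°C and 90.0% ± 3.54 (SD, n = 3) at 35°C. A single 31°C library gave 7 skipping and 103 inclusion reads, a ψ of 90.8%, so the inclusion level there lay within the range of the warmer libraries. A second 33/35 event of the gene had the same skipping reads beside a longer exon of 134 bases (174141955 to 174142088). That event had 1083 to 1324 inclusion reads and a mean ψ of 96.7% at 33°C and 35°C.

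In Zm00001d047636 on chromosome 9, an exon of 72 bases (137789562 to 137789633) had 8, 7 and 8 skipping reads at 33°C and 10, 6 and 5 at 35°C. Inclusion reads were 73 to 87 in these 6 libraries. The only other V5 value, in a 37°C library, was 4 skipping and 85 inclusion reads. Zm00001d039526 on chromosome 3 had an exon of 51 bases (7129052 to 7129102) with 5, 8 and 9 skipping reads at 33°C and 4, 9 and 10 at 35°C. Its value in a 37°C library was 2 skipping and 154 inclusion reads. In both genes the inclusion reads at 37°C were near those at 33°C and 35°C and the skipping reads were lower.

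Zm00001d009452 on chromosome 8 held events with V5 values only at the intermediate MDTs. Its exon of 78 bases (65146633 to 65146710) had 6, 7 and 3 skipping reads at 33°C and 6, 8 and 9 at 35°C, with 186 to 246 inclusion reads. No V5 library at 31°C or 37°C had a value for it. A second 33/35 event of this gene had the same skipping reads beside an exon of 86 bases (65146633 to 65146718). Its mean ψ at 33°C and 35°C was 88.65%, against 95.6% for the exon of 78 bases. Zm00001d027425 on chromosome 1 had an exon of 42 bases (4979810 to 4979851) with 16 and 5 skipping reads at 33°C and 7, 7 and 9 at 35°C, which is a ψ of 68.9% ± 15.9 (SD, n = 2) and 66.5% ± 10.7 (SD, n = 3). In Zm00001d005151 on chromosome 2, with 4 to 8 skipping reads, ψ was 63.6% ± 11.9 (SD, n = 2) at 33°C and 66.8% ± 11.9 (SD, n = 3) at 35°C, and the 1 skipping and 18 inclusion reads of a 37°C library gave 91.7%. No function is given here for these 6 genes, which the sources used here do not annotate.

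**Figure D3:**
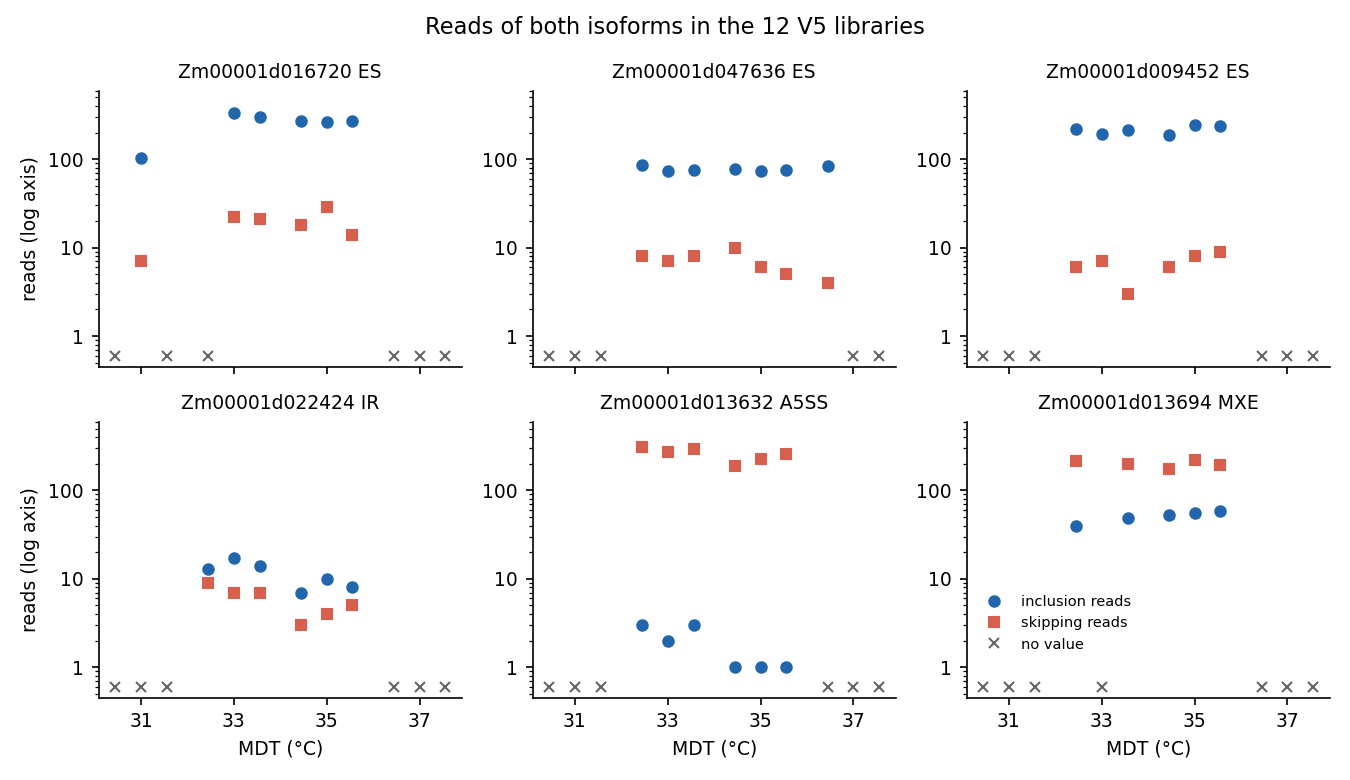
Reads of the inclusion (circles) and skipping isoform (squares) on a log axis in the 12 V5 libraries, ordered by MDT (°C), for 6 of the 33/35 events. Crosses at the bottom mark libraries without a value. Values are present in 5 or 6 of the libraries at 33°C and 35°C, and the crosses fill nearly all of 31°C and 37°C.

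The remaining ES events were sparser still. The median skipping reads at 33°C and 35°C were up to 1 in 40 of the 154 ES events, above 1 and up to 2 in 54, above 2 and up to 5 in 50 and above 5 in 10. The skipping isoform was the rarer in 151 of them. The median ψ was 96.3%, against 86.8% in the other ES events seen in 5 or 6 of these libraries. The skipped exons had a median of 82.5 bases, against 100 bases over all ES events at V5. Their length was a multiple of 3, which keeps the reading frame of a coding exon, in 77 of 154 (50.0%), against 41.9% of all ES events. The exons on either side were a median of 804 bases apart, against 1089 in the other ES events seen in 5 or 6 of these libraries, and 9 pairs (5.84%) were over 10000 bases apart, against 5.43%.

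In the IR events the retained intron more often had the fewer reads, in 10 of 17, without correction for length. By reads, an exception was Zm00001d022424 on chromosome 7, the only event of its gene, with an intron of 627 bases (177374285 to 177374911). Inclusion reads were 13, 17 and 14 at 33°C and 7, 10 and 8 at 35°C, and skipping reads were 9, 7 and 7 and then 3, 4 and 5. Corrected for length, ψ was 27.1% ± 5.08 (SD, n = 3) and 28.9% ± 4.76 (SD, n = 3), so the retained form was the minority after this correction. No V5 library at 31°C or 37°C gave a value, and since the gene has no other V5 event its level there at V5 is not known from these tables.

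The most abundant IR events had nearly no retention. In Zm00001d031128 on chromosome 1, an intron of 97 bases (178802525 to 178802621) was retained in 1 to 3 reads beside 629 to 1077 spliced reads, and the value in a 37°C library was 1 read beside 262. In Zm00001d048796 on chromosome 4, retention was seen in 1 to 4 reads beside 168 to 276 spliced reads. Zm00001d028958 had 2 to 4 retained reads beside 169 to 246, Zm00001d008264 2 to 9 beside 56 to 117, and Zm00001d023756 1 to 2 beside 72 to 106. Each of these 5 events had 1 value at 31°C or 37°C, with 1 or 2 retained reads.

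The A5SS events showed the same form. In Zm00001d013632 on chromosome 5, the longer exon, by 40 bases (15874288 to 15874327), had 3, 2 and 3 reads at 33°C and 1 in each library at 35°C. The shorter form had 314, 274 and 298 reads at 33°C and 190, 229 and 257 at 35°C, and no library at 31°C or 37°C gave a value. In Zm00001d002925 on chromosome 2, the 24 bases at 26736728 to 26736751 were included in 1 to 5 reads beside 137 to 201. Zm00001d052796 had 1 to 3 reads of the longer form beside 61 to 148, and Zm00001d049208, whose 2 sites were 9 bases apart, 1 to 2 beside 93 to 139. The longer form was the rarer in 15 of the 22 A5SS events.

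Most of the A3SS events had splice sites close together, as did most of all A3SS events at V5. The alternative part was 51 bases or less in 21 of 30 (70.0%), against 72.2% of all A3SS events. It was exactly 3 bases in 5 of the 30, too few to compare with 588 of all 5339. In Zm00001d032685 on chromosome 1, 3 bases (234358932 to 234358934) were included in 1 or 2 reads beside 84 to 114. In Zm00001d024205 on chromosome 10, a stretch of 84 bases had 1 to 3 reads beside 29 to 64. In both, the longer form was read 1 to 3 times per library. These events were named for having the highest median skipping reads of the A3SS events. By reads, the shorter form was the rarer in 18 of the 30 A3SS events and the longer form in 12.

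In most of the 8 MXE events both isoforms had many reads. The median of the rarer isoform was 17.5 reads, against 2 for the 33/35 events as a whole, and lay between 13 and 63 reads in all but 1. The exception was Zm00001d053100, with 2 and 5 inclusion reads at 33°C and 2, 4 and 4 at 35°C, beside 3 to 6 skipping reads. In Zm00001d015406 on chromosome 5, the first exon (88518723 to 88518755) had 32, 65 and 53 reads at 33°C and 32, 47 and 50 at 35°C, and the second exon (88518881 to 88518913) had 52, 43 and 39 and then 54, 53 and 34. Both exons are 33 bases long, and no V5 library at 31°C or 37°C gave a value.

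In Zm00001d013694 on chromosome 5, inclusion reads were 40 and 49 at 33°C and 53, 55 and 58 at 35°C, beside 174 to 220 skipping reads. ψ was 31.2% ± 4.31 (SD, n = 2) and 37.8% ± 2.57 (SD, n = 3), and no library at 31°C or 37°C had a value. In Zm00001d040302 on chromosome 3, inclusion reads were 15 to 32 and skipping reads 76 to 102 at 33°C and 35°C, and a 31°C library had 9 and 45. In Zm00001d001808 on chromosome 2 they were 67 to 111 and 46 to 80, and a 31°C library had 78 and 51.

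Most of the MXE events shared their libraries with an ES event of the same gene. In 6 of the 8, an ES event that was itself a 33/35 event had values in exactly the same V5 libraries, and in 4 of these it skipped an exon of the MXE pair. In Zm00001d013694 and Zm00001d001808 no ES event of the gene was a 33/35 event, and those that skipped the MXE exons had values in 7 to 10 V5 libraries, against 5 and 6 for the MXE event. In Zm00001d015406 that ES event skipped the second exon in 1, 5 and 8 reads at 33°C and 1, 1 and 4 at 35°C, beside 222 to 279 reads that included it. Reads that join an exon to its neighbours also come from RNA that holds both exons, so the high MXE reads are not by themselves counts of RNA with a single exon of the pair.

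Several genes held more than 1 of these events, and not all of them were separate observations. In 33 genes there were 2 or more, and 154 genes had a single event. In 21 sets, holding 47 events, the events of a gene had the same skipping reads in every library, and counting each set once left 205. Genes with a 33/35 event had a median of 4 listed V5 events, against 2 over all genes.

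The genes with the most events were Zm00001d014178, Zm00001d017550 and Zm00001d022046 with 4 each, followed by Zm00001d020020 and Zm00001d046020 among 5 genes with 3. In Zm00001d014178 on chromosome 5, an exon of 321 bases (35067692 to 35068012) was skipped in 7, 14 and 14 reads at 33°C and 3, 4 and 6 at 35°C. ψ was 76.0% ± 7.15 and 83.0% ± 7.24 (SD, n = 3 each). Its other 3 events shared 1 set of 1 to 5 skipping reads, and none of the 4 had a value at 31°C or 37°C.

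This gene was read far more at the intermediate MDTs. On its 2 events with a value in every V5 library, the reads were 28, 18 and 25 at 31°C, 165, 180 and 219 at 33°C, 100, 128 and 116 at 35°C and 27, 17 and 23 at 37°C. Scaled by the reads of each library on such events, the mean level at 33°C and 35°C was 6.62-fold that at 31°C and 37°C, and the libraries did not overlap. In these leaf samples, more RNA per cell and more cells that hold the RNA cannot be told apart.

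Other members of this group rested on few reads. In Zm00001d017550, an A3SS event with sites 12 bases apart had a single inclusion read in each of the 6 libraries, beside 11 to 24 skipping reads, and its other 3 events shared 1 or 2 skipping reads. In Zm00001d022046 on chromosome 7, 3 ES events shared 2 to 8 skipping reads, and a 37°C library had 3. In Zm00001d020020 the 3 events shared 1 to 5, and a 37°C library had 2. In Zm00001d046020 on chromosome 9, an exon of 491 bases was skipped in 5, 3 and 8 reads at 33°C and in 1 and 6 at 35°C, beside 496 to 612 inclusion reads. These are counts of a few reads beside a dominant isoform.

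Reads of the genes as a whole were somewhat higher at 33°C and 35°C. Of the 187 genes, 72 had an event with a value in every V5 library, and on those events the median level was 1.20-fold that at 31°C and 37°C (quartiles 1.07 and 1.45), against 1.12-fold (quartiles 0.951 and 1.31) over all 2685 such genes. A level over 1.5-fold higher was seen in 16 of the 72 (22.2%), against a background of 10.1% of all genes. Besides Zm00001d014178, the largest were Zm00001d034027 at 2.55-fold and Zm00001d014732 at 2.32-fold. Zm00001d034027 had 4 to 6 reads at 31°C, 14 to 20 at 33°C, 3 to 9 at 35°C and 2 to 6 at 37°C. Its 35°C libraries overlapped those at 31°C and 37°C. Zm00001d014732 had 62 to 75 reads at 31°C, 210 to 243 at 33°C and 35°C and 106 to 158 at 37°C. Both genes were named after their values were seen. Skipping reads alone lay above those of every 31°C and 37°C library in all 6 libraries at 33°C and 35°C in 6 of the 72 genes, with a background of 5.74%, and below in 1, with a background of 2.57%. The rule favoured genes with more reads at these MDTs, and nothing is read from these shares.

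Annotation was scarce. The study's list of differentially expressed genes gave a description by the closest Arabidopsis gene for 10 of the 187 genes, and 259 of the 9208 genes with a V5 event, so counts by pathway were void. The lists match words of these descriptions, and they found 25 kinases and phosphatases, 9 heat and protein folding genes, 9 transport genes, 4 RNA processing genes, 2 ubiquitin genes and 1 photosynthesis gene among the 259. None of these held a 33/35 event, from which nothing is read, and the words missed a transporter and a RING/U-box protein described below. The list for transcription factors matched 1, through the words zinc finger, which was Zm00001d048969, a RING/FYVE/PHD zinc finger protein. Of 88 V5 events in 7 of the genes that the study names, none was a 33/35 event. The 7 were the splicing regulator genes SR45a, SR34, SCL33, SRP and SPFcc1-like, the heat shock factor gene HSFTF9 and CAU1. Of all 19 genes the study names by ID, 15 had a V5 event and 1, NCRK, held a 33/35 event, 1 of their 196 V5 events. With a background of 0.822% of all V5 events, nothing is read from these counts.

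The 10 annotated genes had varied roles. All 10 lay on chromosomes 4 and 9, which held 24 and 27 of the 231 events, so they are not a sample of all genes with 33/35 events. Zm00001d047765, annotated as a lambda class glutathione transferase, GSTL2, of a family known for redox reactions, held 3 events. Its dominant exon of 61 bases had 2024 to 2740 inclusion reads and was skipped in 1 to 4. An exon of 75 bases in the same gene had 18 and 9 inclusion and 3 and 4 skipping reads at 33°C, and 8, 16 and 17 inclusion and 1, 3 and 2 skipping reads at 35°C. None of the 3 had a V5 value at 31°C or 37°C.

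Zm00001d052185, annotated as CYCLIN D4;1, of a family that drives entry into the cell cycle, skipped an exon of 87 bases in 1 to 4 reads beside 155 to 286, and a 37°C library had 2 beside 163. Zm00001d052434, annotated as the zinc induced facilitator-like transporter ZIFL1, skipped an exon of 88 bases in 1 to 6 reads beside 55 to 82, and a 37°C library had 3 beside 145. Zm00001d044860, annotated as a TLD-domain nucleolar protein, had an A5SS event with 1 to 3 inclusion reads beside 27 to 42 skipping reads and an IR event with 18 to 32 reads of the retained intron beside 1 or 2. Its 37°C value lay near these, at 4 beside 26 and 18 beside 2.

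Zm00001d051952, annotated as RIC5, a partner of ROP GTPases in cell polarity, retained its intron of 114 bases in 5 and 6 reads at 33°C and 2, 7 and 2 at 35°C, beside 2 to 7 spliced reads. Zm00001d052268, a RING/U-box protein of a class that includes ubiquitin ligases, had 4, 6 and 10 skipping reads at 33°C and 1 and 2 at 35°C. Zm00001d048969 had 1 to 5 skipping reads beside 1 to 3, Zm00001d052072, a WD40 repeat protein, 1 to 5 inclusion reads beside 16 to 39, and Zm00001d048298, an exostosin family protein, 1 to 4 skipping reads beside 52 to 91. Zm00001d044982, a P-loop nucleoside triphosphate hydrolase, had 12, 3 and 9 skipping reads at 33°C and 1, 1 and 3 at 35°C. In all 10 genes the values rest on small counts of at least 1 isoform, or on both being low.

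NCRK (Zm00001d014967 on chromosome 5), a receptor-like serine/threonine protein kinase gene that the list does not describe, held an ES event with an exon of 86 bases (70454308 to 70454393). The exon was included in 11 and 2 reads at 33°C and in 4, 4 and 2 at 35°C. It was skipped in 3 and 1 reads at 33°C and in 1, 2 and 7 at 35°C. ψ was 62.9% ± 9.90 (SD, n = 2) and 47.6% ± 29.1 (SD, n = 3), and no V5 library at 31°C or 37°C had a value.

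The events were spread over all 10 chromosomes. Chromosome 5 held the most, 40 of 231 (17.3%), against 12.0% of all V5 events, and chromosome 10 the fewest, 9 (3.90%), against 5.78%.

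The rule did not compare ψ between 33°C and 35°C, and this difference was tested, but the rule did use the presence of values at both MDTs. Each 33/35 event was seen in 2 or 3 libraries at 33°C and in 2 or 3 at 35°C. An event whose rarer isoform was unread at either MDT could not enter. The counts below describe events selected in this way, so nothing is read from the lack of calls or from the background beside it. The comparison asks whether ψ of these events moved between the 2 MDTs at which they were seen. Inclusion and skipping reads of every V5 event with enough reads, which included 201 of the 231, were fitted with a quasi-binomial model, moderated across events with limma. None of the 201 was called (FDR up to 0.01 and ψ more than 5 percentage points apart), with a background of 0.553% (49 of 8862 events tested). At an unadjusted p under 0.05 there were 9 of 201, with a background of 12.4%. The edgeR quasi-likelihood test, run on 56 of the 231, also called 0, with a background of 0.920%, and had 6 at an unadjusted p under 0.05, with a background of 14.6%. limma on log2 ratios, run on 201, called 0 and had 21 at that level, with a background of 11.6%.

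**Figure D4:**
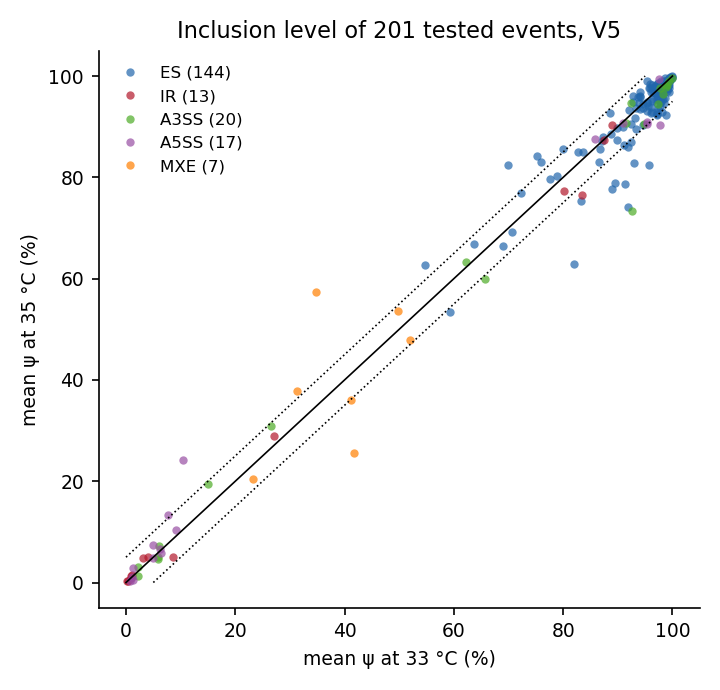
Mean ψ (%) at 35°C against that at 33°C at V5 for the 201 tested 33/35 events, by AS type (number of events in brackets). The solid line marks equal ψ and the dotted lines a difference of 5 percentage points. Most ES events lie near 100%, and 28 events lie outside the dotted lines.

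Most values lay near 100%, where ψ can move little. The median ψ was 93.6% over the 33/35 events, against 53.9% over the other events seen in 5 or 6 of these libraries, so their differences in points are given without reading stability from them. Mean ψ differed by a median of 1.43 percentage points, against 2.80 over the 8862 events, and 28 events (13.9%) differed by over 5 points, against 33.6%. ψ was higher at 35°C in 74 events (36.8%), against 45.9%.

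The events and genes with the lowest p values were named after these were seen. The lowest belonged to Zm00001d012525 on chromosome 8, whose exon of 183 bases (176091391 to 176091573) was skipped in 3, 3 and 2 reads at 33°C and 8, 7 and 13 at 35°C. Inclusion reads were 127, 132 and 152 at 33°C and 86, 101 and 104 at 35°C. ψ was 95.8% ± 1.22 and 82.5% ± 4.21 (SD, n = 3 each), without overlap between the groups, a difference of -13.3 percentage points that missed the threshold (limma-moderated test, FDR 0.0938). Over all alternatives its FDR lay between 0.0222 and 0.245. A 37°C library had 2 skipping and 67 inclusion reads, a ψ of 93.8%.

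The next were Zm00001d019090 and Zm00001d040317. In Zm00001d019090 on chromosome 7, an exon of 43 bases was skipped in 1 read in each library at 33°C and in 6 and 7 at 35°C, and ψ differed by -6.60 points (limma-moderated test, FDR 0.203). In Zm00001d040317 on chromosome 3, an exon of 35 bases was skipped in 2 and 1 reads at 33°C and in 6, 7 and 9 at 35°C, and ψ differed by -2.63 points (limma-moderated test, FDR 0.226). In both, the libraries of the 2 MDTs did not overlap, and neither difference was called.

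The V4 libraries were not used by the rule, so the same pairs of MDTs could be compared there. Of the 231 events, 185 (80.1%) were listed at V4, against 66.7% of all V5 events. They were seen in few V4 libraries. The 3 libraries had a value for 17.3% to 22.2% of the 185 events at 31°C, 17.8% to 25.9% at 33°C, 30.8% to 35.1% at 35°C and 24.9% to 31.4% at 37°C. For all 18730 events listed at both stages the share was at most 51.9% in a V4 library and 53.3% to 61.2% in the V5 libraries, and the lowest V4 share lay above the highest of the 185 events. The 33°C libraries at V4 overlapped those at 31°C and 37°C, and the 35°C libraries overlapped those at 37°C.

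Detection at V4 was tested for each event with a two-sided Fisher's exact test of 6 libraries against 6, whose smallest p is 0.00216. None of the 185 events was called at an adjusted p of at most 0.05, and none of the 15208 events tested was, so the background was 0%. At an unadjusted p under 0.05 there was 1 of the 185, with a background of 0.171% (26 of 15208). A single event at the smallest p does not pass an adjustment over 15208 events. More libraries at 33°C and 35°C than at 31°C and 37°C had a value in 85 of the 185 events (45.9%) and fewer in 53 (28.6%), against 40.8% and 39.1% of all events tested. A mean of 1.65 of the 6 libraries at 33°C and 35°C and 1.43 of the 6 at 31°C and 37°C had a value. The rule of 5 and 1 libraries was met at V4 by 1 of the 185 events and by 48 of the 15208.

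That event was in Zm00001d006061 on chromosome 2, an A3SS event with sites 20 bases apart (196887796 to 196887815). At V4 it had 2, 1 and 3 skipping reads at 33°C, 3, 2 and 3 at 35°C, no value at 31°C and 1 skipping read in a single 37°C library (exact p = 0.0152 before adjustment, adjusted p = 1). At V5 it had 2, 1 and 3 skipping reads at 33°C, 2 and 1 at 35°C and 2 in a 31°C library. The 4 next in this direction, Zm00001d019111, Zm00001d021396, Zm00001d027794 and Zm00001d040259, had 3 more V4 libraries at 33°C and 35°C than at 31°C and 37°C. In Zm00001d021396 these were the 3 libraries at 35°C.

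Other events went the opposite way. In Zm00001d042264, an A3SS event with 5 to 13 skipping reads in all 6 V5 libraries at 33°C and 35°C, the V4 values were in 2 libraries at 31°C and 2 at 37°C and in none at 33°C or 35°C. Zm00001d001995, Zm00001d008859, Zm00001d015297 and Zm00001d016615 were among 6 events with 3 fewer V4 libraries at 33°C and 35°C. Zm00001d015297 had a value in all 6 V4 libraries at 31°C and 37°C.

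Few of the events had enough V4 values for a test of ψ. The quasi-binomial model with limma moderation could be fitted to 3 of the 231, and called 0 of them, with a background of 0.0497% (3 of 6031), and 0 at an unadjusted p under 0.05, with a background of 7.94%. The 3 were in Zm00001d005271 (A5SS, FDR 0.901), Zm00001d038343 (ES, FDR 0.970) and Zm00001d023998 (IR, FDR 0.705). limma on log2 ratios gave 1 of the 3 at an unadjusted p under 0.05, with a background of 7.46%, and called 0, and edgeR could be run on 0 of them.

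Skipping reads of whole genes at V4 were compared over events with a value in all 12 V4 libraries with edgeR's quasi-likelihood test, in which 1746 genes were tested. This asks whether skipping reads of the genes that held 33/35 events differed between the pairs of MDTs at the earlier stage. Such sums can change with splicing as well as with the level of a gene. Of 46 such genes, 0 were called higher and 0 lower at an adjusted p of at most 0.05, each with a background of 0.515% (9 genes each). At an unadjusted p under 0.05 there were 8 of 46, with a background of 11.9%, and DESeq2 called 0, with a background of 1.60%, and had 7 at that level, with a background of 11.1%. The lowest edgeR p was that of Zm00001d007405, with a log2 fold change of -0.52 (adjusted p = 0.139), followed by Zm00001d010995 with 0.73 (adjusted p = 0.183). The median log2 difference was -0.01 for the 46 genes and -0.01 for all genes tested.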

How the data were processed

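Poly(A) RNA of 24 maize leaf libraries was sequenced by the authors, filtered with SOAPnuke, aligned to B73 with HISAT2 2.0.4, and AS events were detected with rMATS. The deposited counts of inclusion and skipping reads are raw reads without normalization, and the deposited fraction ψ was computed by the authors after division by isoform length. Positions are 1-based in B73 RefGen_V4, and sequences are not printed, since a genome of that build was not used here. Columns were matched to samples by name, and 5 columns of single samples that could not be matched were not used. For V4 31°C replicates 2 and 3, inclusion reads were recovered from ψ and skipping reads in 8809 of 9083 and 9077 of 9363 events.

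The events and gene lists were chosen with earlier results of these data known. Named events were the 12 with the highest median skipping reads at 33°C and 35°C, 2 per AS type, the 5 genes with most events, those in genes annotated or named by ID in the study, and up to 5 per direction of V4 detection. Those with the most reads of the rarer isoform were added after their values were seen. Quasi-binomial fits needed a mean of 10 reads, used limma 3.58.1 in R 4.3.3 with Benjamini-Hochberg adjustment within AS type, and were tested on simulated data. Skipping reads of genes were tested with edgeR 4.0.16 and DESeq2 1.42.0. Tables were handled in Python with pandas 2.3.3 and scipy 1.17.1. Alternatives changed the rule, the tool, the read minimum and the libraries. Without molecular identifiers, reads are not independent molecules.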

Additional observations from a re-analysis of the deposited data

How the results depend on the processing

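The number of 33/35 events depended on the rule. It was 21 with values in 6 of 6 and 0 of 6 libraries, 1437 with at least 4 and at most 2, 205 with at least 2 skipping reads and 184 with at least 3. Of the 231 events, 87 and 57 met the rule under these last minimums, so most of the events found were different ones. With at least 2 reads of each isoform, chosen after seeing the data, 203 events met it, among them 56 of the 231. Leaving out 1 library while keeping 1 exception on each side, which loosens the rule, gave 334 (without V5 31°C replicate 1) to 395 (without V5 33°C replicate 3). It moved the count by over 1.5 times without V5 31°C replicate 3 (349), 37°C replicate 1 (356) and each of the 33°C (374, 393 and 395) and 35°C libraries (379, 364 and 371).

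No 33/35 event and no gene holding one was called in any test under any alternative run. For detection at V4 a single event could not pass the adjustment, and for ψ at V4 at most 4 of the 33/35 events were fitted. Nothing is read from the lack of calls in these V4 comparisons. The same holds for ψ at V5 35°C against 33°C, since the rule kept only events seen at both MDTs. For ψ at V5 35°C against 33°C, the calls over all events were 49, and 0 with limma on log2 ratios, 104 at an FDR of at most 0.05, 31 with the replicate block and 39 to 46 without 1 library. For ψ at V4 they were 3, and 1 with edgeR, 0 with limma on log2 ratios, 14 at an FDR of at most 0.05, 1 with the replicate block and 1 to 7 without 1 library (7 and 6 when 37°C replicate 2 or 3 was left out, and 1 for 35°C replicate 2). For skipping reads of genes at V4 they were 18, and 28 with DESeq2, 10 with the replicate block, 10 with events in at least 10 libraries and 10 to 20 without 1 library (10 without 33°C replicate 3). Detection at V4 gave 0 calls under every alternative run, including the Mantel-Haenszel test with the replicate block. The cause of these changes was not tested. The replicate numbers did not pair the samples, since deviations of same-numbered libraries correlated by between -0.0262 and 0.0528. Most of the 33/35 events rest on 1 to 3 reads of an isoform per library, which limits every comparison of them.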
